A study of Homo sapiens with 20 samples.

Results

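Knockdown of SP6 at day 7 of differentiation to surface epithelium was measured by RNA-seq in 4 libraries, 2 from cells given a short hairpin RNA (shRNA) against SP6 and 2 from cells given a scramble shRNA, a control hairpin. All 4 came from H1, an established human embryonic stem cell (hESC) line, and all 4 were taken along that course to the stage that the labels describe as maturing. The day was read from the name of the table. The genes described are those with a mean of at least 10 normalized counts over these 4 libraries, which left 17535 of the 27020 genes listed for the comparison and of the 31155 in the whole series. The means nearest this limit were 10.001 inside it and 9.997 outside it. The series as a whole holds 20 libraries in 10 groups of 2, which cover unmodified hESC and day 3 cells and knockdowns of FOXO4 and of SP6 at day 3 and day 7, each with its own scramble libraries. How many hairpins were used, and whether the cells were pools or clones, is not given in the sources used here. Nothing in the labels says that replicates were separate cultures, so p-values measure the spread between these libraries, which may be technical.

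SP6 (also called epiprofin) is a zinc finger transcription factor of the SP and KLF family, whose members bind GC-rich boxes in promoters and enhancers. In the mouse it is known from ectodermal structures, where it takes part in tooth, hair follicle and limb bud development. Surface ectoderm arises where BMP signalling acts on ectoderm. It forms a simple epithelium that carries keratins 8 and 18 and the transcription factors TFAP2A, GATA3 and TP63, and it later gives rise to epidermis, glands and placodes. NODAL signalling, which works through SMAD2 and SMAD3, supports the pluripotent state of human embryonic stem cells and patterns mesoderm and endoderm.

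SP6 itself read 4077 and 3040 normalized counts in scramble replicates 1 and 2 and 85.7 and 93.1 in shSP6 replicates 1 and 2. The groups did not overlap, and 2.51% of the scramble mean was left (log2 fold change -5.28, standard error or SE 0.14, limma adjusted p = 4.7e-09, n = 2 per group). FOXO4, a forkhead transcription factor and the other factor knocked down in the series, read 1513 and 1204 in scramble and 253 and 225 in shSP6. Its RNA fell by 2.49 on the log2 scale (SE 0.13, adjusted p = 2.5e-07), to 17.6% of the scramble mean, with no overlap. Of the other FOXO genes, FOXO3 fell to 51.1% of its scramble mean, while FOXO1 and FOXO6 did not pass the test (log2 fold changes 0.05 and -0.04).

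**Figure D1:**
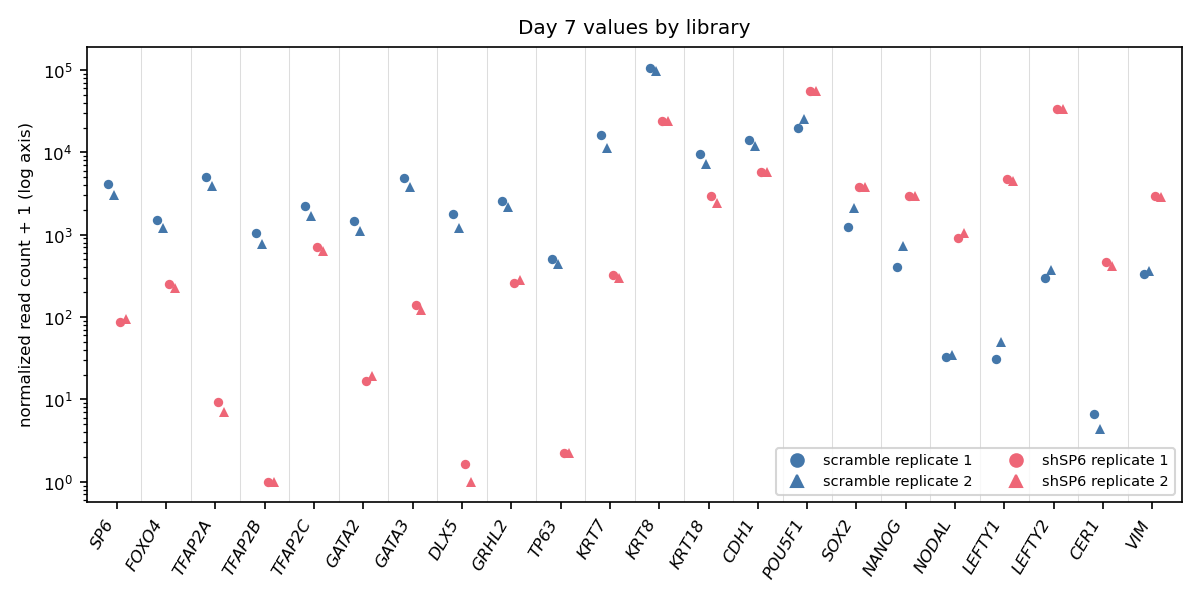
Normalized read count + 1 on a log axis for 22 genes in each of the 4 libraries; blue marks are scramble, red marks are shSP6, circles are replicate 1 and triangles replicate 2. In each gene both shSP6 libraries lie on the same side of both scramble libraries, from SP6 (4077 and 3040 against 85.7 and 93.1) to VIM (329 and 360 against 2967 and 2843).

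Recovered reads per library ran from 15537490 to 30328846, with the highest number in shSP6 replicate 1. Mitochondrial rRNA took 0.494% and 0.633% of the normalized counts in scramble and 1.15% and 1.17% in shSP6, and its part in the results was not tested. Across genes, log2 values of replicates had an SD of 0.28 in scramble and 0.23 in shSP6. Scramble replicate 2 lay nearer to the shSP6 libraries than scramble replicate 1 did. Among the 2357 genes at least 2-fold higher in shSP6, 77.4% were higher in scramble replicate 2 than in replicate 1, against 47.7% of all tested genes. Among the 1924 genes at least 2-fold lower the share was 19.4%. Without scramble replicate 2 the counts at 2-fold were 2801 higher and 2076 lower, and without scramble replicate 1 they were 2231 and 1734.

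Expression changed across much of the transcriptome. At an adjusted p under 0.05 by limma, 10268 genes (58.6%) were called, 5084 (29.0%) higher in shSP6 and 5184 (29.6%) lower. The shares of 29.0% and 29.6% stand beside every count of called list members below. The calls of at least 2-fold were 2357 higher (13.4%) and 1924 lower (11.0%). Lowered genes reached further than raised ones: 357 genes were called at least 8-fold lower and 292 at least 8-fold higher, and beyond 32-fold there were 123 lower and 23 higher. In 56 genes with a scramble mean of at least 100, no more than 1% of the scramble mean was left, and 4 genes showed the reverse. No read was recovered in either shSP6 library for 50 genes with a scramble mean of at least 10, nor in either scramble library for 39 genes with a shSP6 mean of at least 10. The median log2 fold change over all tested genes was -0.02. The libraries were scaled to each other, which tends to hold this median near 0 and higher and lower calls near balance. In 80.7% of tested genes the groups did not overlap. In bulk RNA, fewer cells of a type and less RNA per cell cannot be told apart, and this applies to each gene group that follows.

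**Figure D2:**
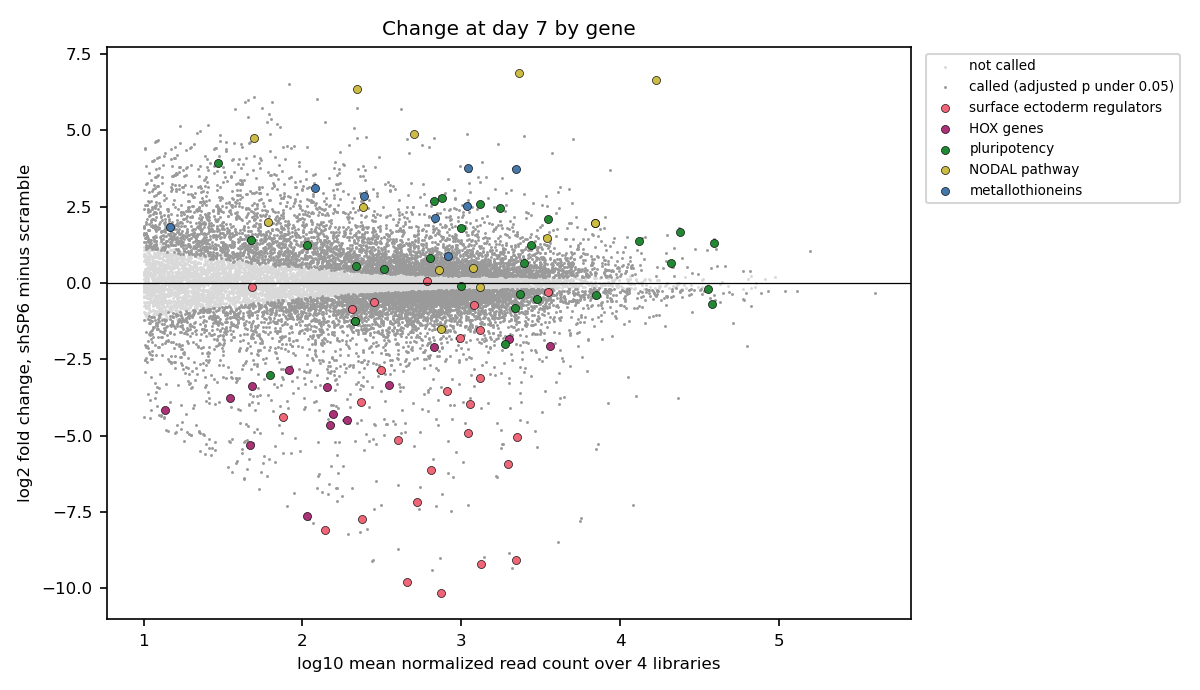
Log2 fold change (shSP6 minus scramble) against the log10 mean normalized read count for the 17535 tested genes in grey, with members of 5 gene lists in colour. Surface ectoderm regulators reach down to -10.16 (DLX5) and HOX genes to -7.62 (HOXB6), and NODAL pathway genes reach up to 6.87 (LEFTY1).

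The transcription factors of surface ectoderm fell as a group. Of 30 listed surface ectoderm regulators, 27 were tested, 25 were called lower and none higher, and the median log2 fold change was -3.97. In 8 of the 27 the shSP6 mean was under 10, so they passed the limit on the mean through scramble alone. Setting genes with no reads in a group to their lower bound moved no list's median at 2 decimals. TFAP2A, an AP-2 factor that opens the surface ectoderm programme, read 5040 and 3857 in scramble and 8.20 and 6.12 in shSP6 (log2 fold change -9.09, SE 0.19, adjusted p = 1.2e-09). DLX5, a distal-less homeobox factor, read 1777 and 1197 in scramble and 0.63 and 0 in shSP6 (fitted log2 fold change -10.16, SE 0.32). Its ratio rests on 1 read over both shSP6 libraries, which is 0.0281% of scramble with an exact 95% counting interval of 0.00071% to 0.157%. TFAP2B, a second AP-2 factor, read 1061 and 760 in scramble and 0 in both shSP6 libraries, which makes it at least 729-fold lower against a floor of 3 counts over the group. No group overlapped another in these genes. Intervals and floors cover counting error only. TFAP2C, the AP-2 factor that is also active in early trophoblast and germ cells, fell less and kept 33.9% of its scramble mean (2240 and 1699 against 701 and 634).

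GATA3, a zinc finger factor of surface ectoderm and trophoblast, read 4837 and 3822 in scramble and 139 and 120 in shSP6 (log2 fold change -5.05, adjusted p = 3.3e-09). GATA2, its relative, fell to 1.33% of the scramble mean, GATA5 to 2.85% and GATA6 to 1.32%. GATA4 was low in all libraries (36.4 and 19.9 against 35.9 and 26.9) and its groups overlapped. TP63, the master regulator of stratified epithelia, read 500 and 445 in scramble and 1.26 and 1.22 in shSP6. That is 3 reads in all, or 0.265% of scramble with a counting interval of 0.0544% to 0.776%. GRHL1, GRHL2 and GRHL3, the grainyhead-like factors that maintain epithelial junctions, kept 8.57%, 11.4% and 6.28% of theirs. Smaller changes were called in OVOL1 (54.9% left), KLF5 (64.0% left) and ESRP1, an epithelial splicing factor (80.4% left).

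The promoters of some genes that the results turn on are shown because SP and KLF factors are known to bind the GC box (GGGCGG) and the GT box (GGGTGG). The sequences are the 250 bases before the annotated start in RefSeq on GRCh38.p14, 5′ to 3′ on the gene's strand. Capitals mark matches to either motif, sought on both strands, so a GT box on the other strand reads CCACCC. FOXO4 lies at chrX:71095601-71095850 (plus strand), TFAP2B at chr6:50818621-50818870 (plus), KRT8 at chr12:52926470-52926719 (minus) and NODAL at chr10:70441682-70441931 (minus).
FOXO4: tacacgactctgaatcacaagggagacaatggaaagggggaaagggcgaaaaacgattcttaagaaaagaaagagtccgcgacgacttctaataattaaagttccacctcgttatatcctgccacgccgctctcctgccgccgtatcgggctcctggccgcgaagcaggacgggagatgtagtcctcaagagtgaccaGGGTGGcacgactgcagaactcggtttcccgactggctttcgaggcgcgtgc
TFAP2B: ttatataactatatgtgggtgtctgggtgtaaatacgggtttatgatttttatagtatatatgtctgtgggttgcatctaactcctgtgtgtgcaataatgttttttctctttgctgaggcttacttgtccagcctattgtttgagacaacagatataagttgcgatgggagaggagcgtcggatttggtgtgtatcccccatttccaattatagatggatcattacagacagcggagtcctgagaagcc
KRT8: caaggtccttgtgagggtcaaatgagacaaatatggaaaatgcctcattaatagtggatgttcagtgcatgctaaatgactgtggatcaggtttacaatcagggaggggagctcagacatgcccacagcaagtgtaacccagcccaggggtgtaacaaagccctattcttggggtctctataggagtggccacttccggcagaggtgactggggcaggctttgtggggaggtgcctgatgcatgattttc
NODAL: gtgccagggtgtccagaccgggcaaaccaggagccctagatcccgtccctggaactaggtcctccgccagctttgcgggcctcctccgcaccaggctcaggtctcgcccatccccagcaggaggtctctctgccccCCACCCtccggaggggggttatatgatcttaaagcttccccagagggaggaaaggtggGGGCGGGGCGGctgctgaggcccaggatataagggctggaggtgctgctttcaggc

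Of 27305 RefSeq promoters of this length, 42.3% held GGGCGG and 30.4% held GGGTGG on either strand. The FOXO4 window held 1 GT box and no GC box. In the NODAL window there were 2 GC boxes, which share bases, and 1 GT box. The TFAP2B and KRT8 windows held neither, which says only that these letters are not in these 250 bases. It does not say that either gene lacks them at another start. Binding of SP6 was not measured in these libraries.

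Genes of the simple epithelium also fell, by smaller factors than its regulators. Of 32 tested members, 24 were called lower and 1 higher (CLDN7, 134% of its scramble mean; not called without shSP6 replicate 1), and the median log2 fold change was -0.89. KRT23, 1 of the 24, passed the limit on the mean through scramble alone. KRT8, the keratin that pairs with KRT18 in simple epithelia, read 106536 and 96330 in scramble and 23943 and 24043 in shSP6 (log2 fold change -2.08, SE 0.08). KRT18 read 9503 and 7265 against 2978 and 2453. KRT7, a keratin of glandular and amniotic epithelia, fell to 2.25% of its scramble mean (16050 and 11364 against 318 and 299). The remaining keratins of the list fell between these extremes or beyond them: KRT19 kept 7.38%, and KRT23 read 1556 and 1059 in scramble and 0.63 and 1.22 in shSP6. CDH1 (E-cadherin) and EPCAM, the adhesion molecules of epithelial cells, kept 44.8% and 46.4%. Junction genes were split. CLDN4 fell to 12.7% and CGN (cingulin) to 18.6%, whereas CRB3 and LSR did not pass the test.

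Desmosomes, the junctions that tie keratin filaments of neighbouring cells, and genes of stratified epithelium were lower in 11 and higher in 5 of 18 tested members, with a median log2 fold change of -0.45. DSG3, 1 of the 5, passed the limit on the mean through shSP6 alone. DSP (desmoplakin), the plaque protein that binds keratins, read 27928 and 18967 in scramble and 1700 and 1849 in shSP6, or 7.57% of the scramble mean. JUP (plakoglobin) kept 28.1%, PKP2 31.9% and DSC2 25.7%. TGM1, a crosslinking enzyme of the cornified layer, fell to 12.1%. Genes of the same list that rose were EVPL (14.8 and 9.96 against 103 and 136), COL17A1 (26.2 and 19.9 against 131 and 104), SFN, KRT15 and DSG3. KRT15 was not called without shSP6 replicate 2 or by DESeq2. DSG3 was uneven in scramble (2.28 and 17.7 against 70.0 and 77.2), with a log2 fold change of 1.99 without scramble replicate 1 and 4.51 without scramble replicate 2. KRT5 and KRT14, the keratins of basal keratinocytes, were not analysed here.

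**Figure D3:**
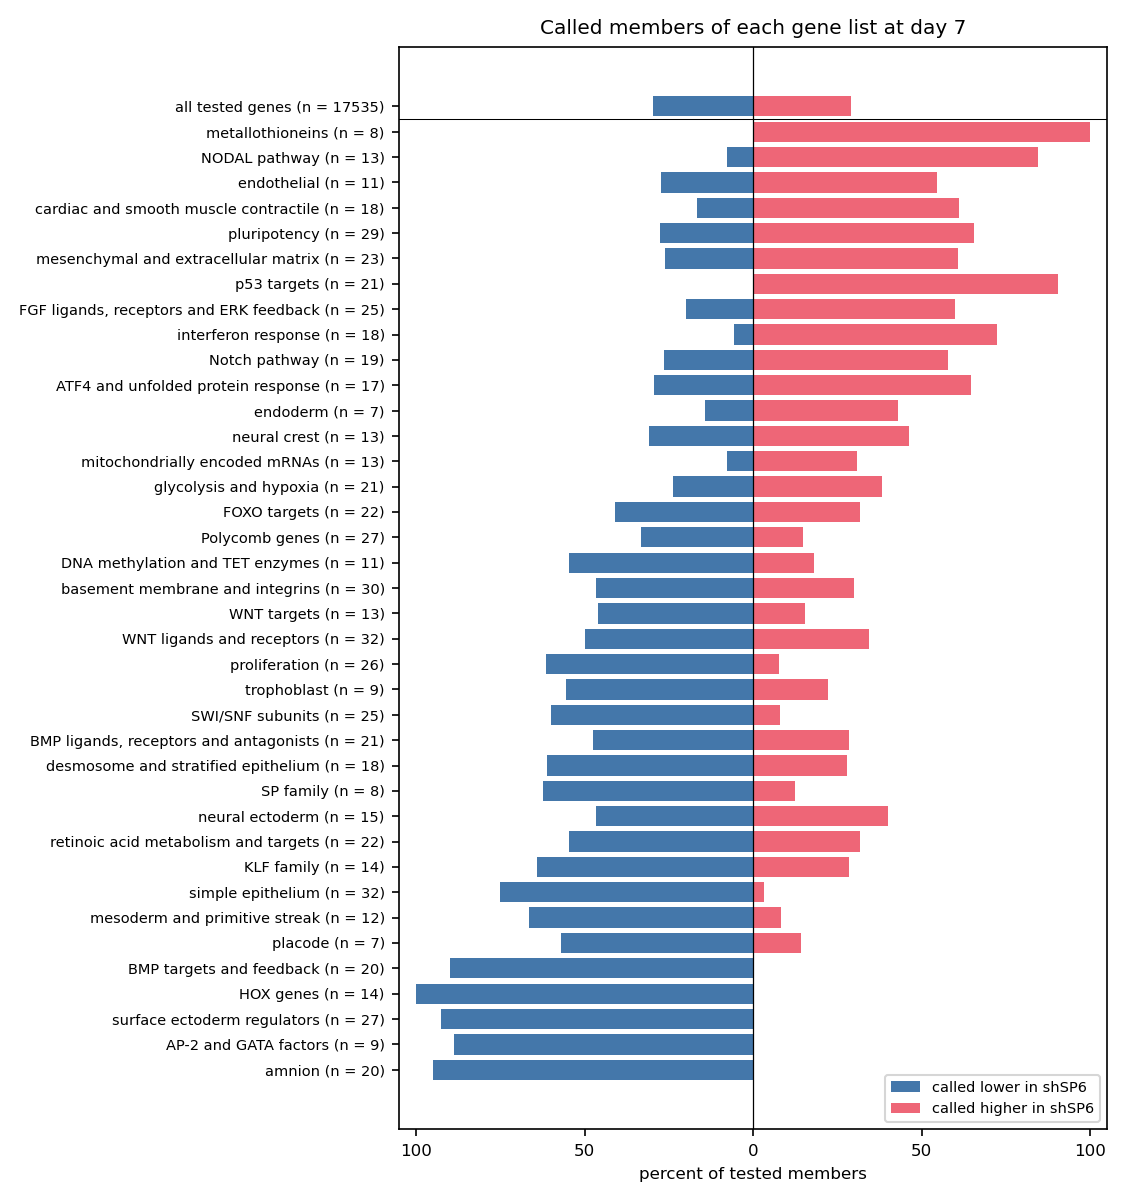
Percent of tested members called lower (blue, to the left) or higher (red, to the right) in shSP6 for each list of at least 5 tested members, ordered by median log2 fold change, with all tested genes at the top. Amnion, AP-2 and GATA, surface ectoderm, HOX and BMP target lists lie at the foot with no member called higher; all 8 tested metallothioneins and 11 of 13 NODAL pathway genes were called higher.

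Several BMP ligands fell, as did most BMP targets. BMP4, the ligand that induces surface ectoderm, read 3458 and 2845 in scramble and 459 and 360 in shSP6 (13.0% left). GDF6, a BMP-type ligand, read 3322 and 2255 in scramble and 7.57 and 2.45 in shSP6 (log2 fold change -8.98). That change was -9.63 without shSP6 replicate 1 and -8.32 without shSP6 replicate 2. BMP7 kept 42.1%. The ligand BMP6 rose from 20.5 and 23.2 to 47.9 and 39.2 (not called by DESeq2 or without either shSP6 library), and BMP2 did not pass the test (77.1% of its scramble mean). Among receptors, BMPR1A kept 65.2% and ACVR2B 49.0%, while BMPR2 rose to 143%. Over ligands, receptors and antagonists together, 10 of 21 were called lower and 6 higher (median log2 fold change -0.44). Of all tested genes 29.6% were called lower and 29.0% higher. Among the 21, 2 passed the limit on the mean through scramble alone and 1 through shSP6 alone.

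Of 20 tested BMP targets and feedback genes, 18 were called lower and none higher, with a median log2 fold change of -3.46 and 4 over the limit through scramble alone. ID1, ID2 and ID3, inhibitors of helix-loop-helix factors and direct readouts of BMP-activated SMAD proteins, kept 11.8%, 2.55% and 7.38% of their scramble means. ID1 read 21093 and 19186 in scramble and 2297 and 2467 in shSP6. ID4 fell less (59.7% left). MSX1 and MSX2, homeobox targets of BMP, kept 0.56% and 1.62%. The inhibitory SMAD6 fell to 11.2%, whereas SMAD7, which also answers to NODAL and TGF-beta, read 963 and 844 against 826 and 914 and its groups overlapped. TBX3, a T-box repressor, read 4731 and 3300 in scramble and 5.04 and 11.0 in shSP6. Several of these genes (DLX5, HAND1, GATA2, GATA3, MSX1 and MSX2) also stand in the surface ectoderm list.

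NODAL pathway genes moved the other way. Of 13 tested members, 11 were called higher and 1 lower, with a median log2 fold change of 1.99. In 2 of them the scramble mean was under 10. NODAL, the ligand, read 31.9 and 33.2 in scramble and 905 and 1046 in shSP6 (log2 fold change 4.86, SE 0.15, adjusted p = 1.3e-08). Its feedback inhibitor LEFTY2 read 296 and 370 in scramble and 33197 and 33688 in shSP6, a 100-fold difference in means (log2 fold change 6.66, SE 0.10). LEFTY1, a near-identical neighbour of LEFTY2, read 29.6 and 48.7 against 4688 and 4447. The split of reads between the LEFTY genes is uncertain. Both stood far above scramble in both shSP6 libraries. CER1, a secreted antagonist of NODAL and BMP, read 5.69 and 3.32 in scramble and 461 and 413 in shSP6.

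Other members of the pathway include its receptors and SMAD partners. TDGF1 (CRIPTO), the co-receptor, read 2210 and 3610 in scramble and 11111 and 11052 in shSP6, and GDF3, a related ligand, rose to 571% of its scramble mean. FOXH1, the nuclear partner of SMAD2 and SMAD3, rose to 135% (not called without shSP6 replicate 1), SMAD3 to 139% and the SMAD inhibitor SKIL to 280%. SMAD2 did not pass the test (90.3% of its scramble mean). The type I receptors parted: ACVR1B fell to 35.1%, and ACVR1C, which was low in scramble, rose to 391%.

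**Figure D4:**
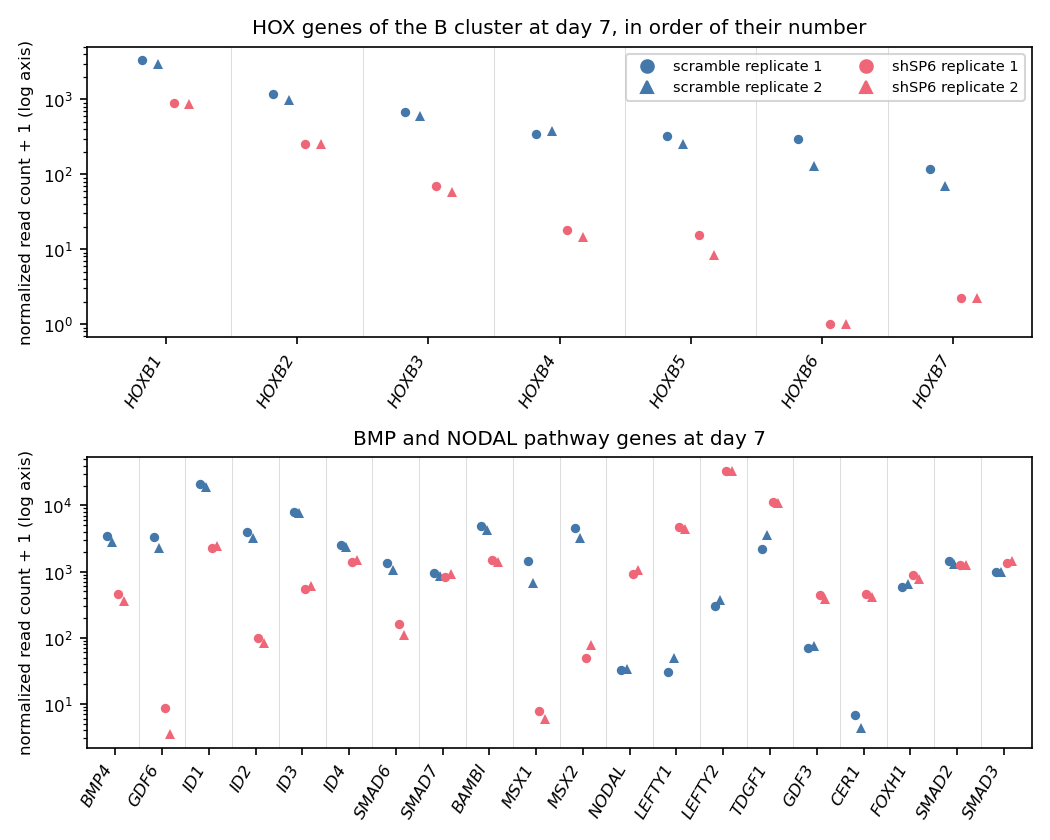
Normalized read count + 1 on a log axis in the 4 libraries (blue scramble, red shSP6; circles replicate 1, triangles replicate 2) for the 7 HOX genes of the B cluster that the text names, above, and for BMP and NODAL pathway genes, below. HOXB6 lies between 129 and 297 in scramble and at 0 in both shSP6 libraries, and LEFTY2 lies between 296 and 370 in scramble and between 33197 and 33688 in shSP6.

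The 14 HOX genes that passed the limit on the mean were called lower, with a median log2 fold change of -3.60. HOX genes encode homeobox factors that set position along the body axis. Of the 39 HOX genes listed, 27 were in the table, 13 of these lay under the limit on the mean, and 5 of the 14 passed it through scramble alone. HOXB1 kept 28.0% of its scramble mean and HOXB2 23.0%. Higher in the B cluster, HOXB3 kept 9.73%, HOXB4 4.19% and HOXB5 3.81%. HOXB7 kept 3 reads in shSP6, or 1.36% of scramble (counting interval 0.279% to 4.06%). HOXB6 read 297 and 129 in scramble and 0 in both shSP6 libraries. This is at least 171-fold lower, and the fitted log2 fold change ran from -7.03 to -8.22 with a scramble library left out. MEIS1 and MEIS2, homeobox cofactors of HOX proteins, kept 2.32% and 1.21%.

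Genes used as markers of amnion, an epithelium that shares BMP dependence and many regulators with surface ectoderm, were lower in 19 of 20 tested members and higher in none (median log2 fold change -5.23, with 7 over the limit through scramble alone). ISL1, a LIM homeobox factor, read 1854 and 1418 in scramble and 20.2 and 20.8 in shSP6. VTCN1, a surface protein of amnion and trophoblast, read 1626 and 1300 against 2.52 and 1.22. HAND1, a helix-loop-helix factor, read 3548 and 1742 against 6.93 and 1.22 (log2 fold change -9.21, and -10.13 without shSP6 replicate 1 or -8.29 without shSP6 replicate 2). CDX2 read 881 and 363 against 1.89 and 3.67 (log2 fold change -7.27, and -6.63 without scramble replicate 1 or -7.91 without scramble replicate 2). GABRP and IGFBP3 kept 37.7% and 6.46%, and POSTN overlapped between groups. The list shares TFAP2A, GATA2, GATA3, HAND1, TBX3, BAMBI and HEY1 with the surface ectoderm or BMP lists. The summed level of its members was 70649 and 52634 in scramble and 9816 and 9553 in shSP6. What cells without a surface ectoderm identity contributed to the scramble values was not tested.

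Pluripotency genes were higher in 19 and lower in 8 of 29 tested members (median log2 fold change 0.83). DPPA3, 1 of the 19, passed the limit on the mean through shSP6 alone. Of all tested genes 29.0% were called higher and 29.6% lower. POU5F1 (OCT4) was already high in scramble at day 7 and read 19554 and 25689 there against 55239 and 55332 in shSP6, a 2.44-fold difference in means (SE of the log2 fold change 0.11). NANOG read 401 and 722 in scramble and 2948 and 2927 in shSP6 (log2 fold change 2.45, SE 0.21). SOX2 read 1245 and 2136 against 3822 and 3805 (log2 fold change 1.22, SE 0.19). In these 3 genes scramble replicate 2 stood above replicate 1 and both stood below shSP6. DPPA2 and PRDM14, a marker and a regulator of the pluripotent state, rose to 680% and 628% of their scramble means. Not all of the list moved this way: LIN28A kept 62.5%, SALL4 77.8% and KLF4 41.8%, and OTX2, a factor of epiblast and forebrain, fell to 11.9%. The summed level of the list was 158864 and 191323 in scramble and 244786 and 249079 in shSP6. The share of undifferentiated cells in each library was not tested.

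FGF and ERK feedback genes were higher in 15 and lower in 5 of 25 tested members (3 lower without shSP6 replicate 1). Of the 25, 2 passed the limit on the mean through shSP6 alone. The ERK-driven ETS factors ETV4 and ETV5 rose to 225% and 286% of their scramble means, and SPRY4, an inhibitor of the pathway, rose to 224%. The receptors FGFR1, FGFR2 and FGFR3 fell to 47.6%, 53.1% and 38.2%, while FGFR4 rose to 226%. In the Notch pathway 11 of 19 were called higher and 5 lower, beside 29.0% and 29.6% of all tested genes. Among the 19, 1 passed the limit on the mean through shSP6 alone. DLL3, a ligand-like inhibitor of Notch, read 106 and 181 in scramble and 3401 and 3107 in shSP6. Of the Notch and BMP targets of the HEY family, HEY1 fell to 4.49% of its scramble mean and HEY2 rose to 519%.

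WNT ligands and receptors were lower in 16 and higher in 11 of 32 tested members, and 7 were higher without shSP6 replicate 1. Of the 32, 3 passed the limit on the mean through scramble alone and 2 through shSP6 alone. Of all tested genes 29.6% were called lower and 29.0% higher. WNT4 fell to 9.72% of its scramble mean and WNT9B to 8.57%, and WNT6, a ligand of surface ectoderm, read 582 and 439 in scramble and 2.52 and 0 in shSP6 (log2 fold change -8.08, and -8.98 or -7.17 without shSP6 replicate 1 or 2). FZD5, a receptor that is prominent in hESC, rose to 716%. Among WNT targets, LEF1 kept 3 reads in shSP6, or 1.47% of scramble (counting interval 0.301% to 4.39%), and AXIN2 did not pass the test. WNT targets as a list were lower in 6 and higher in 2 of 13 (4 higher without scramble replicate 1, 1 without shSP6 replicate 1). LEF1 was the 1 of the 13 that passed the limit on the mean through scramble alone. Retinoic acid genes were lower in 12 and higher in 7 of 22, beside the same 29.6% and 29.0% of all tested genes. Among the 22, 1 passed the limit on the mean through each arm alone. STRA6, the importer of retinol, fell to 40.8%, ALDH1A3, which makes retinoic acid, rose to 362%, and CYP26A1, which degrades it, did not pass the test (12148 and 13919 against 11842 and 10949).

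Genes of mesenchyme and extracellular matrix were higher in 14 and lower in 6 of 23 tested members. Of the 23, 3 passed the limit on the mean through scramble alone, COL3A1 and LUM among them. VIM (vimentin), the intermediate filament of mesenchymal and embryonic stem cells, read 329 and 360 in scramble and 2967 and 2843 in shSP6 (log2 fold change 3.07, SE 0.09, adjusted p = 8.3e-09). CDH2 (N-cadherin) rose to 427% and COL1A1 to 211%. The matrix genes COL3A1 and LUM (lumican) went the other way. COL3A1 read 6013 and 2382 in scramble and 3.78 and 6.12 in shSP6 (log2 fold change -9.34, and -8.67 without scramble replicate 1 or -10.01 without scramble replicate 2). LUM read 701 and 416 in scramble and 0 in both shSP6 libraries, so it was at least 447-fold lower. HAPLN1, which links hyaluronan to proteoglycans, fell from 8720 and 7427 to 20.8 and 22.0. Of 30 tested basement membrane and integrin genes, 14 were called lower and 9 higher, beside 29.6% and 29.0% of all tested genes. Among the 30, 1 passed the limit on the mean through scramble alone. FREM1 and FREM2, which anchor epidermis to dermis, kept 5.78% and 6.34%, and LAMB1 kept 13.4%, while LAMA4 read 18.2 and 17.7 in scramble and 211 and 233 in shSP6 and the integrin ITGB1 rose to 197%.

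Markers of other cell types moved in both directions. Contractile genes of heart and smooth muscle were higher in 11 and lower in 3 of 18 tested members, and their summed level was 3616 and 3585 in scramble and 18947 and 18118 in shSP6. Skeletal actin ACTA1 supplied much of this sum (360 and 377 against 9873 and 9560), with TAGLN next (557 and 603 against 4394 and 4339). The cardiac markers TNNT2 and ACTC1 did not pass the test, and MYH6 fell to 15.9%. Among the 18, 1 passed the limit on the mean through scramble alone. Of 12 tested genes of mesoderm and primitive streak, 8 were called lower and 1 higher. Of the 12, 5 passed the limit on the mean through scramble alone, and all 5 were among those called lower. With either scramble library left out 5 were called lower, and without scramble replicate 1 or either shSP6 library none was higher. HAND2 fell from 249 and 215 to 0 in both shSP6 libraries. Endothelial genes were higher in 6 and lower in 3 of 11, beside 29.0% and 29.6% of all tested genes. Their summed level was 2218 and 2919 in scramble and 11553 and 11701 in shSP6. Among the 11, 1 passed the limit on the mean through shSP6 alone. KDR, a VEGF receptor also found in hESC, read 756 and 1113 against 6938 and 7575, whereas CDH5 (VE-cadherin) fell to 21.5% and VWF to 39.5%.

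Neural ectoderm genes were higher in 6 and lower in 7 of 15 tested members (3 higher without shSP6 replicate 2). Of the 15, 4 passed the limit through scramble alone, and 2 of these were called lower. A further 1 passed it through shSP6 alone. PAX6 was low in all 4 libraries (20.5 and 15.5 against 7.57 and 9.80). NES (nestin) rose to 223% and NCAM1 fell to 19.5%. Neural crest genes were higher in 6 and lower in 4 of 13, beside 29.0% and 29.6% of all tested genes. SOX10 did not pass the test, and SOX9 fell to 16.2%. Among placode genes EYA1, a transcriptional cofactor in placodes, fell to 2.40%. In endoderm, AFP read 3.42 and 1.11 in scramble and 120 and 114 in shSP6, CXCR4 rose to 902%, and FOXA1 did not pass the test. Of 7 tested placode genes 4 were called lower and 1 higher, and of 7 endoderm genes 1 lower and 3 higher. Of the endoderm genes, 2 passed the limit on the mean through shSP6 alone and 1 through scramble alone. Among the placode genes 1 passed it through each arm alone. Trophoblast genes were lower in 5 and higher in 2 of 9 (1 higher without either shSP6 library), and 5 of the 9 passed the limit through scramble alone. The trophoblast gene VGLL1 fell from 304 and 257 to 0 in both shSP6 libraries. How far other cell types contributed to these values was not tested.

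Several groups tied to stress or cell state rose. All 8 tested members of the metallothionein list, metal-binding proteins with the zinc exporter SLC30A1, were called higher (median log2 fold change 2.68). In 1 of the 8 the scramble mean was under 10. MT1G read 158 and 568 in scramble and 4731 and 3396 in shSP6 (log2 fold change 3.74, and 2.82 without scramble replicate 1 or 4.65 without scramble replicate 2). MT2A read 224 and 449 against 2075 and 1593. In both genes the scramble replicates differed by a larger ratio than the shSP6 replicates did, and the groups did not overlap. MT1 genes are near-identical copies, so the share of each is uncertain.

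Of 21 tested p53 targets, 19 were called higher and none lower (median log2 fold change 0.73). CDKN1A (p21), which blocks cyclin-dependent kinases, read 1680 and 2379 in scramble and 8261 and 7461 in shSP6, and GDF15, a stress-induced cytokine, read 628 and 1100 against 8436 and 6497. MDM2, which degrades p53, rose to 151% and BAX, a death effector, to 170%. Interferon response genes were higher in 13 and lower in 1 of 18 (0 to 2 lower with a library left out). ISG15 was among those higher (344% of its scramble mean). Of the 18, 2 passed the limit on the mean through shSP6 alone. In the ATF4 and unfolded protein response list 11 of 17 were called higher and 5 lower, beside 29.0% and 29.6% of all tested genes. HSPA5, the chaperone of the endoplasmic reticulum, rose to 346%, and ASNS (asparagine synthetase) to 339%, while HERPUD1 fell to 28.7%.

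Proliferation genes were lower in 16 and higher in 2 of 26 tested members (median log2 fold change -0.35). The subunits of the replicative helicase fell together, with MCM2 at 32.4%, MCM3 at 27.3%, MCM5 at 36.5% and MCM6 at 37.9% of their scramble means, and the S-phase activator E2F1 at 25.9%. Among mitotic genes, CCNB1 did not pass the test, and CDK1 rose to 144%. Among chromatin regulators, 15 of 25 SWI/SNF subunits were called lower and 2 higher. SMARCA2 (BRM), an ATPase of the complex, read 1927 and 1571 in scramble and 203 and 148 in shSP6, whereas its alternative SMARCA4 (BRG1) read 8187 and 7845 against 8069 and 7950. ARID1A kept 25.6%. Of 27 Polycomb genes 9 were called lower and 4 higher, where the share of all tested genes called lower was 29.6%. EZH2, a histone methyltransferase, kept 39.0% and BMI1 21.1%, while PHC1 rose to 285%. DNA methylation and TET enzymes were lower in 6 and higher in 2 of 11, with 3 and 1 without shSP6 replicate 1. Glycolysis and hypoxia genes were higher in 8 and lower in 5 of 21, and 9 were lower without scramble replicate 1, 2 without scramble replicate 2 and 3 without shSP6 replicate 2. Mitochondrially encoded mRNAs were higher in 4 and lower in 1 of 13 (0 to 3 lower with a library left out). Beside both lists stand 29.0% of all tested genes called higher and 29.6% called lower. The share of mitochondrially encoded mRNAs called higher lay near the first of these.

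Other SP and KLF genes changed too. SP1, SP2 and SP3, the ubiquitous members, kept 61.3%, 65.4% and 76.9% of their scramble means. SP8, a relative of SP6 in limb ectoderm, rose from 31.9 and 37.6 to 73.1 and 66.1 (not called without shSP6 replicate 1). Of 14 tested KLF genes 9 were called lower and 4 higher, beside 29.6% and 29.0% of all tested genes. KLF2, which passed the limit on the mean through shSP6 alone, rose from 6.83 and 9.96 to 56.1 and 45.3. Of 22 FOXO target genes 7 were called higher and 9 lower, beside 29.0% and 29.6% of all tested genes. Of these, SESN3 fell to 25.2% and CDKN1A, which also stands in the p53 list, rose to 387%. KLF2 also stands among the 22.

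Among genes averaging 100 or more, the 12 highest changes included, besides LEFTY1, LEFTY2, CER1 and NODAL, the cytokine IL1A, the receptor tyrosine kinase TIE1 and the inflammasome gene NLRP7. NLRP7 read 141 and 207 in scramble and 4842 and 4739 in shSP6. IL1A read 9.11 and 24.3 against 847 and 794 (log2 fold change 5.68, and 5.02 without scramble replicate 1 or 6.34 without scramble replicate 2). TIE1 read 39.8 and 124 against 2276 and 1912 (log2 fold change 4.87, and 4.06 or 5.67 without those libraries). Both shSP6 libraries stood well above both scramble libraries in each. The others were SFTA1P, MARCHF4, PIK3AP1, GARIN1B and OR52A1, of which MARCHF4 (4.62 to 5.93) and GARIN1B (4.08 to 5.40) moved most on the log2 scale when a scramble library was left out. The 12 lowest were DLX5, TFAP2B, KRT23, COL3A1, HAND1, TFAP2A, LUM, VTCN1, GDF6, TBX3, NR2F2 and HAPLN1.

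The genes that changed at day 7 were set against the normal course of differentiation, measured in unmodified cells from hESC to day 3 in libraries that the knockdown does not share. In that course 12.2% of 16217 tested genes rose and 16.4% fell at least 2-fold. Of the 1899 of these that rose and were tested at day 7, 1337 (70.4%) were called lower in shSP6 at day 7 and 173 (9.11%) higher, with a median log2 fold change of -1.03. Of the 2539 that fell, 1576 (62.1%) were called higher and 141 (5.55%) lower, with a median of 0.85. Of the 11364 genes that did neither, 24.5% were called higher and 30.9% lower. TFAP2A (9.89), GATA3 (10.12) and DLX5 (11.30) were among the genes that rose on the log2 scale from hESC to day 3, and NANOG (-2.72) and VIM (-2.59) among those that fell.

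The same knockdown at day 3 used separate libraries of both arms. There SP6 read 1790 and 1939 in scramble and 203 and 322 in shSP6 (log2 fold change -2.86). The day 7 effect on SP6 was larger by 2.42 on the log2 scale (difference -2.42, adjusted p = 3.3e-05 by limma over 8 libraries). FOXO4 did not pass the test at day 3 (3084 and 3779 against 3197 and 3351, log2 fold change -0.06) and fell at day 7, and the difference between the days passed the test (-2.43, adjusted p = 1.3e-06). Over all 15992 genes tested at both days the Pearson correlation of the effects across genes was 0.73, where genes are not independent replicates. At day 3 alone 55.8% of tested genes were called. Of the 6467 genes called at both days, 5887 (91.0%) had the same sign. The difference itself was called higher at day 7 in 2363 genes (14.8%) and lower in 3245 (20.3%).

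In several surface ectoderm regulators the day 7 effect was more negative. DLX5 at day 3 read 2744 and 2043 in scramble and 597 and 673 in shSP6, so the difference between the days was -8.26 on the log2 scale (SE 0.34, adjusted p = 2.2e-08). TFAP2A at day 3 read 7170 and 5276 against 1254 and 1515 (difference -6.93), and TFAP2B and TBX3 followed with differences of -6.87 and -6.56. Where the shSP6 libraries hold few or no reads, as in DLX5 and TFAP2B, the size of such a fitted difference depends on the 1 added to each value. In GATA3 (-3.02), GRHL2 (-1.83), TP63 (-4.75) and KRT7 (-2.72) the difference also passed the test. KRT8, KRT18, CDH1, EPCAM and TFAP2C showed differences between -0.28 and 0.15 that did not pass the test. Differences of NANOG (0.45) and SOX2 (-0.55) did not pass it either, and that of POU5F1 did (0.61, adjusted p = 0.011).

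The highest differences between the days were those of NPPB, CXCL1, ARHGAP40 and LEFTY2. NPPB, which encodes a natriuretic peptide, read 993 and 1123 in scramble and 185 and 193 in shSP6 at day 3, and 64.9 and 85.2 against 739 and 524 at day 7. It was thus lower in the knockdown at day 3 and higher at day 7 (difference 5.52, adjusted p = 2.8e-08). CXCL1, a chemokine, differed by 4.29 and ARHGAP40 by 3.87. LEFTY2 was higher at both days and differed by 3.80, VIM by 1.65 and NODAL by 2.94 (adjusted p = 2.0e-06).

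**Figure D5:**
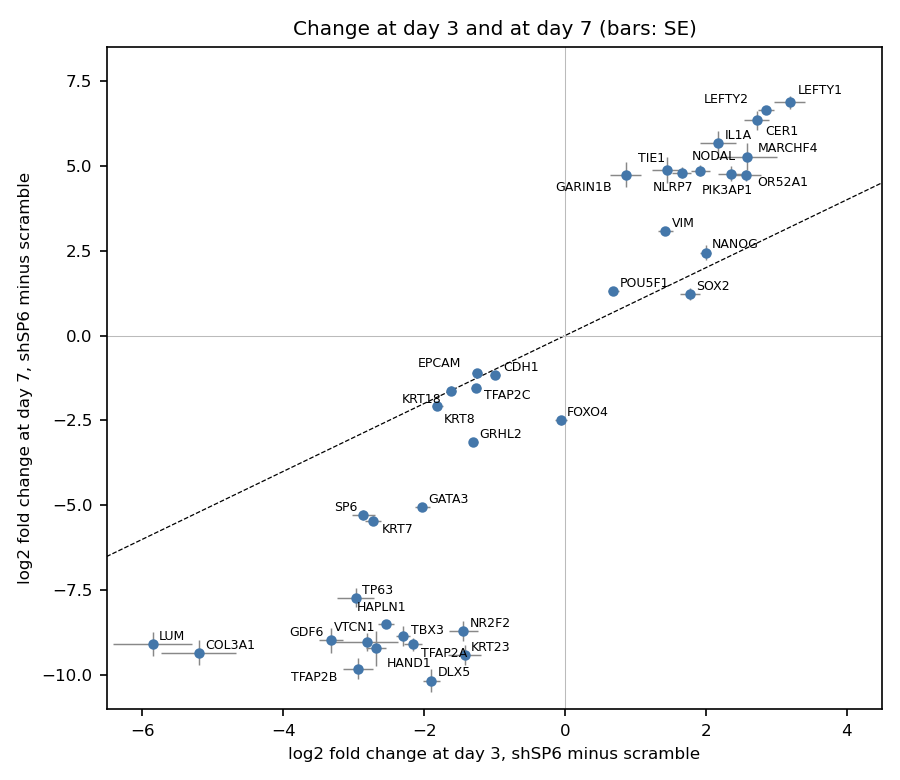
Log2 fold change of shSP6 against scramble at day 3 (x axis) and day 7 (y axis) for the panel genes and the most changed genes, with bars of 1 SE and a dashed line where both days are equal. DLX5 lies at -1.90 on day 3 and -10.16 on day 7, FOXO4 at -0.06 and -2.49, and KRT18 at -1.61 and -1.62, near the line.

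Knockdown of FOXO4 at day 7, with its own scramble libraries, gave effects that correlated with those of SP6 knockdown across 16043 genes (Pearson correlation 0.74, slope 0.54 of the SP6 effect on the FOXO4 effect). The FOXO4 knockdown called 72.6% of its tested genes. Of the 7922 genes called in both, 7040 (88.9%) had the same sign. SP6 fell in the FOXO4 knockdown (5230 and 4867 against 520 and 457, log2 fold change -3.37), and the fall was 1.92 smaller on the log2 scale than under its own hairpin (difference of -1.92, adjusted p = 4.5e-06). FOXO4 fell by 4.92 under its own hairpin and by 2.49 under that of SP6 (difference 2.43, adjusted p = 1.9e-06). The difference was called higher in the SP6 knockdown in 3193 genes (19.9%) and lower in 4675 (29.1%). The higher calls were 40.6% of all calls, and 49.5% of them under quantile normalization, with the median difference over all genes at -0.11 and 0.03.

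Among surface ectoderm regulators, the effect was more negative under SP6 than under FOXO4 knockdown in DLX5 (difference -6.83), TFAP2A (-5.29), TFAP2B (-4.44), TP63 (-2.77) and GATA3 (-1.78). Not all of that list went this way. ESRP2 (0.97, limma adjusted p = 4.2e-05) and IRX3 (0.69, limma adjusted p = 0.015) passed the test in the other direction. MSX1 (-0.43), HAND1 (-1.51) and OVOL1 (-0.42) did not pass it. DLX5 kept reads in the FOXO4 knockdown (1804 and 1412 in scramble against 151 and 166). The differences of KRT8 (-0.65, limma adjusted p = 0.00021), TFAP2C (-0.77, adjusted p = 0.011) and GRHL2 (-0.58, adjusted p = 0.0041) also passed the test, while those of KRT7, KRT18, CDH1 and EPCAM, between -0.24 and 0.12, did not. VIM was higher under SP6 knockdown (difference 0.55, adjusted p = 0.010). POU5F1, NANOG and SOX2 rose less over their own scramble under SP6 knockdown, with differences of -1.84, -3.67 and -4.50. NANOG read 69.7 and 25.0 in scramble and 3003 and 2949 in the knockdown of the FOXO4 table. In the SP6 table it read 401 and 722 against 2948 and 2927. In the FOXO4 table SOX2 read 182 and 87.0 against 6795 and 6657, and POU5F1 5289 and 3509 against 39062 and 37181. These differences thus take in the scramble libraries of each table as well as the knockdown libraries. Since the tables were scaled separately, levels were not tested between them.

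The lowest differences between the knockdowns were those of SMIM24 (-7.12), DLX5, BARX1 (-6.45) and PPP1R1B (-6.26). Of these, DLX5 fell in both knockdowns, whereas SMIM24, BARX1 and PPP1R1B had log2 fold changes above 0 in both: 1.12, 0.81 and 0.96 under SP6 knockdown and 8.23, 7.26 and 7.22 under FOXO4 knockdown. BARX1, a homeobox factor, read 332 and 350 in scramble and 711 and 502 in shSP6. The highest were those of ACTA1 (6.03), ACTC1 (5.59), COL6A3 (5.40) and COL12A1 (4.71). ACTA1 was raised by SP6 knockdown and read 1037 and 1459 in scramble and 476 and 516 in the FOXO4 knockdown. COL6A3 was uneven in the SP6 table (318 and 95.2 in scramble), and its difference ran from 4.54 to 6.27 with a scramble library of that table left out.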

How the data were processed

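Poly(A) RNA was sequenced from stranded libraries, per the labels' protocols. The deposited values are normalized counts, treated here as a signal scaled on the 4 libraries of each table. Per the submitters' processing notes the tools were DESeq2 1.20.0, RSEM 1.3.0, STAR 2.6.1 and Trimmomatic 0.39, listed with hg19 and with no role or order. Each value was a whole multiple of a step (100% of values within 0.001 read), which gave recovered reads of 15537490 to 30328846 per library. Intervals from these reads cover counting error only. Replicates of a group differed by more than sampling noise.

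Genes averaging 10 or more over the libraries of a table were fitted with limma 3.58.1 (R 4.3.3, trended prior) on log2(value + 1), so changes of low genes are understated, and Benjamini-Hochberg adjusted p-values under 0.05 were called. Level and percent of scramble are on the normalized count scale, fold changes on the log2(value + 1) scale. Differences between days or knockdowns were contrasts over 8 libraries. Tables were scaled separately, so levels were tested within a table only. Alternatives were pseudocounts 0.5 and 5, no limit or a mean of at least 50, TMM, quantile normalization, edgeR 4.0.16 and DESeq2 1.42.0 on recovered reads, a replicate block, and each library left out. The fits were tested on simulated data with few changed genes, moderate changes and only random spread between replicates. That test does not cover data in which much of the transcriptome changed, as here. Symbols were found for 29758 of 31155 gene IDs, and no per-sample column was left out.

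The 40 gene lists hold 791 genes, of which 49 were not in the table and 98 fell under the limit. Some list members are not reported here by name. Members and lists were chosen with earlier results of these data known. Named genes were a fixed panel, the 12 highest and 12 lowest called changes with groups apart and an average of 100 or more, list members by size of change or place in a pathway, and the 4 highest and 4 lowest differences. Groups come from the labels and days from table names.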

Additional observations from a re-analysis of the deposited data

Results flagged for a closer look

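Each result here is a difference between the effects of a knockdown at 2 days, or of 2 knockdowns at day 7, that passed a limma test of the difference itself over 8 libraries. Between day 7 and day 3 of SP6 knockdown, 2363 genes had a higher and 3245 a lower effect at day 7. Lower effects at day 7 were found in DLX5 (-8.26 on the log2 scale), TFAP2A (-6.93), TFAP2B (-6.87), TBX3 (-6.56), TP63 (-4.75), GATA3 (-3.02), KRT7 (-2.72), FOXO4 (-2.43), SP6 (-2.42) and GRHL2 (-1.83). Higher effects were found in NPPB (5.52), CXCL1 (4.29), ARHGAP40 (3.87), LEFTY2 (3.80), NODAL (2.94), VIM (1.65) and POU5F1 (0.61).

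Between SP6 and FOXO4 knockdown at day 7, 3193 genes had a higher and 4675 a lower effect under SP6 knockdown. Lower effects were found in SMIM24 (-7.12), DLX5 (-6.83), BARX1 (-6.45), PPP1R1B (-6.26), TFAP2A (-5.29), SOX2 (-4.50), TFAP2B (-4.44), NANOG (-3.67), TP63 (-2.77), SP6 (-1.92), POU5F1 (-1.84), GATA3 (-1.78), TFAP2C (-0.77), KRT8 (-0.65) and GRHL2 (-0.58). Higher effects were found in ACTA1 (6.03), ACTC1 (5.59), COL6A3 (5.40), COL12A1 (4.71), FOXO4 (2.43) and VIM (0.55). Where a group holds few or no reads, as in DLX5, TFAP2B and TP63, the size depends on the 1 added to each value.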

How the results depend on the processing

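With 2 libraries a group, an effect shared by both replicates and unrelated to SP6 cannot be told apart from the knockdown. All but 1 of the 88 alternative counts of calls stayed within 1.5 times the value reported: at a mean of at least 50 the number called at least 2-fold higher was 1426 against 2357. Called genes ranged from 3868 to 5328 higher and from 4236 to 5228 lower. Over 239 genes or differences named in the text, 213 kept direction and call under every alternative run, 8 results lost the call and 20 gained it. Named genes that lost it were BMP6, CLDN7, FOXH1, KRT15 and SP8. AXIN2, PAX6 and SOX10 gained it under several alternatives. CYP26A1 gained it without scramble replicate 1, and the differences of KRT7, KRT8, KRT18, CDH1, TFAP2C, NANOG and SOX2 each gained it without 1 scramble library. Signs turned only in values near 0 that were not called in the main fit. On the log2 scale, FOXO6 read 0.014 by DESeq2 and 0.028 by edgeR, and SMARCA4 0.014 by DESeq2, 0.012 by edgeR and 0.011 with TMM. Under quantile normalization SMARCA4 read 0.025, SMAD7 0.019 and TNNT2 -0.089, and the differences between days read 0.015 for KRT18 and 0.076 for CDH1, and that between knockdowns -0.014 for EPCAM. With each library left out, values ran from -0.021 to 0.54 for ACTC1, -0.041 to 0.15 for FOXO1, -0.28 to 0.21 for FOXO6, -0.22 to 0.62 for GATA4, -0.15 to 0.041 for SMAD7, -0.032 to 0.030 for SMARCA4 and -0.025 to 0.090 for TNNT2. The differences ran from -0.20 to 0.19 for KRT18 between days, and from -0.13 to 0.37 for KRT7 and -0.070 to 0.13 for EPCAM between knockdowns. The cause was not tested. A replicate block gave 5004 genes higher and 5069 lower at day 7, 2148 and 2938 for the difference between days, and 3037 and 4507 for that between knockdowns. Replicates share only a number: the deviations of same-numbered libraries from their group means had a correlation of -0.02.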
